A study of Mus musculus with 23 samples.

Results

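Acute phase proteins are secreted mainly by the liver during inflammation, yet fat, muscle and several epithelia can make some of them. The 8 acute phase genes described here were Saa1, Saa3, Hp, Lcn2, Itih4, Serpina3n, Cp and Ambp, taken by gene symbol from the 2 deposited count tables of mice with pancreatic tumors. All 8 were among the 16962 genes of the epididymal fat table. Hp, Lcn2, Itih4, Serpina3n and Cp, 5 of the 8, were among the 12831 genes of the quadriceps table, and 17194 genes were in either table. RNA came from male C57BL/6J mice, 8 weeks old at surgery, of 3 groups. No tumor mice had a sham operation. KPC mice received an injection into the pancreas of KPC cells, a mouse pancreatic tumor line from a male mouse, used as 1 clone that carried a control plasmid. KPC IL6KO mice received 1 clone of the same line in which CRISPR/Cas9 had disrupted Il6, and the host mice of all groups kept their own Il6 gene. The quadriceps came from 3 no tumor, 4 KPC and 4 KPC IL6KO mice, the fat pads from 4 other mice of each group (numbered 5 to 8), and each of the 23 libraries was 1 mouse. The comparisons address how these RNAs outside the liver differ with a pancreatic tumor, and between tumors with and without intact Il6. The study reported that KPC tumors were larger than KPC IL6KO tumors. Clone, tumor size and tumor IL-6 therefore cannot be told apart between the 2 tumor groups.

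The acute phase program is switched on by cytokines. IL-6 acts through its receptor, JAK kinases and STAT3, whereas IL-1 and TNF act through NF-kB, and C/EBP factors bind near the start sites of many acute phase genes. The serum amyloid A proteins (Saa1, Saa3) ride on lipoproteins and attract leukocytes, and mouse Saa3 is known for being made in fat and by macrophages. Haptoglobin (Hp) captures free hemoglobin and is made by adipocytes as well as hepatocytes. Lipocalin 2 (Lcn2) binds bacterial siderophores, Serpina3n inhibits serine proteases, Itih4 is a heavy chain relative of the inter-alpha-trypsin inhibitors, Ambp encodes the precursor of alpha-1-microglobulin and bikunin, and ceruloplasmin (Cp) is a copper-carrying ferroxidase.

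On GRCm38.p6 (GENCODE vM21) Hp lay at chr8:109575128-109579172 (minus strand), Cp at chr3:19957054-20009145 (plus strand) and Ambp at chr4:63143275-63154799 (minus strand), and the serum amyloid genes Saa1 and Saa3 lay close together on chromosome 7. RefSeq promoter windows, 250 bases before to 50 after the start, were held for 7 of the 8 genes on the same build. Windows were searched on both strands for 4 motifs of these pathways, TTCNNNGAA for STAT, TTGCNNAA for C/EBP, CTGGGAA for the IL-6 type 2 element and an NF-kB consensus. A match describes the letters and is not evidence that the factor bound there. The windows printed here are those of the 5 genes that held a motif and differed most between groups in at least 1 tissue, each read along the gene's own strand with the matched letters in capitals. The C/EBP letters stood in Saa1 at chr7:46742931-46743230 (minus strand), in Saa3 at chr7:46715627-46715926 (minus strand) and in Lcn2 at chr2:32387690-32387989 (minus strand). The STAT letters stood in Itih4 at chr14:30886226-30886525 (plus strand), and the NF-kB letters in Serpina3n at chr12:104406458-104406757 (plus strand).
Saa1: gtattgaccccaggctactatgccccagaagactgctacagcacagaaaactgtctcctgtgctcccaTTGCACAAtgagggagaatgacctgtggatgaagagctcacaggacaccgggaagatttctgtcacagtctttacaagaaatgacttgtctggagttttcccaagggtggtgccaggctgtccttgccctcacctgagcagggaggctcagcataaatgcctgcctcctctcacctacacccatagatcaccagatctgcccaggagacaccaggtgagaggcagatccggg
Saa3: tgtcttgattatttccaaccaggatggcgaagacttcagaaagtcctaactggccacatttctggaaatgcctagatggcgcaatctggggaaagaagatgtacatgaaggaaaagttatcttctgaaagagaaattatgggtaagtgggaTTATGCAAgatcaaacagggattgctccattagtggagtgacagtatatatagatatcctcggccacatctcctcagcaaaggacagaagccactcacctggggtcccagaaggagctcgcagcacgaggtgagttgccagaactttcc
Lcn2: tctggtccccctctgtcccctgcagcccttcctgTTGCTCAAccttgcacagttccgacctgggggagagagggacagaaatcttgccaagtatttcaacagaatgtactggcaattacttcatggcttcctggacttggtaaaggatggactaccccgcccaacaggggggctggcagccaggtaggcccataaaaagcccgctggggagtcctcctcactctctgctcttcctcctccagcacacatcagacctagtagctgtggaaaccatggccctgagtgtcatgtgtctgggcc
Itih4: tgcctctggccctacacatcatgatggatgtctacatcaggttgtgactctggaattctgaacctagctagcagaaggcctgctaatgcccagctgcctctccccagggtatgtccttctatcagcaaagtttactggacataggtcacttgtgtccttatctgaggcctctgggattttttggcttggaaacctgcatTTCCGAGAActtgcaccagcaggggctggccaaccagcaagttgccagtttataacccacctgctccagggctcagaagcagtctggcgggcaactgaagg
Serpina3n: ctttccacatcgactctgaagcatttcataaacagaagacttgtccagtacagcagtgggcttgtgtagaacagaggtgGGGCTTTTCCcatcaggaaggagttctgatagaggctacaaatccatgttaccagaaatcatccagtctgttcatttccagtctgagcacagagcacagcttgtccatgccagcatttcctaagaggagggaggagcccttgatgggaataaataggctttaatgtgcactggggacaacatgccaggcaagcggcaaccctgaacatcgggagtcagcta
In these windows the first matched base lay 182 bases before the start in Saa1, 99 in Saa3 (on the opposite strand), 216 in Lcn2, 51 in Itih4 and 171 in Serpina3n. One of the 2 Cp windows held the C/EBP letters 70 bases before the start on the opposite strand, and the Ambp window held none of the 4 motifs. The C/EBP letters were thus in 4 of the 7 genes, against 10.8% of all 32851 RefSeq promoter windows. The STAT letters were in 8.3% of all windows, the NF-kB letters in 1.63% and the IL-6 type 2 letters, found in none of the 7, in 11.1%. At least 1 motif was found for 6 of the 7 genes and in 27.5% of all windows. The Saa1 window was 95.3% identical to that of its neighbor Saa2, and their principal transcripts were 87.3% identical, against 61.6% for Saa1 and Saa3. Of the 75-base stretches of the Saa1 transcript, 4.67% were shared exactly with Saa2, and for Serpina3n 1.46% were shared with Serpina3g or the pseudogene Serpina3e-ps. The study assigned uniquely mapped reads, so that reads lying wholly in such stretches could go uncounted. The other members shared none.

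Total counts per library were 19259763 to 74907810 in quadriceps and 26306377 to 56308545 in fat, and levels are given as CPM (a gene's share of the library's counts, scaled to a fixed total) after TMM scaling. Counts of 3 or fewer were treated as not distinguished from 0. The biological coefficient of variation was 22.7% in quadriceps and 63.5% in fat, so that the fat comparisons were the less precise. The 10 skeletal muscle fiber markers summed to 159910 to 243230 CPM in quadriceps, and the 10 adipocyte markers to 1711 to 29910.0 CPM in fat. The Il6 gene was not among the rows of the quadriceps table. In fat it was at 0 to 0.0632 CPM in no tumor, 2.02 to 5.30 CPM in KPC, and 4.66, 0.0343, 0.267 and 4.77 CPM in KPC IL6KO 5 to 8. Because the edit was made in the injected cells, Il6 in host tissue does not check the label. Some libraries stood apart in markers of other tissues. No tumor 5 and 7, all KPC pads and KPC IL6KO 6 held 21347 CPM or more of the epididymal Gpx5 transcript, whereas the highest of the remaining 5 pads held 85.8 CPM. Alb, a hepatocyte gene, reached 97.3 CPM in quadriceps KPC 4, against 0.0351 to 1.16 CPM in the other 10 quadriceps, and 283 CPM in fat KPC IL6KO 6, against 0.349 to 13.8 CPM in the other 11 pads. Skeletal muscle fiber markers summed to 3060 CPM in fat KPC IL6KO 8 and to 10.4 to 504 CPM in the other 11.

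In quadriceps, Lcn2, Serpina3n and Itih4 rose in KPC mice, whereas Cp overlapped between all groups and Hp varied between mice. None of the 5 genes passed the test in KPC IL6KO. In the edgeR quasi-likelihood test (false discovery rate (FDR) at most 0.05 and a fold change (FC) of at least 1.5), 3 of the 5 were called up in KPC relative to no tumor, where 26.7% of all genes were called up, and 4 of the 5 in KPC relative to KPC IL6KO, where 26.4% were. In KPC IL6KO relative to no tumor the test called 0 of the 5 and 0% of all genes. At an unadjusted p under 0.05 there was 1 member, Hp, with a lower level (4.72% of all genes), and DESeq2 and the likelihood ratio test called 0 members.

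Lcn2, the siderophore-binding lipocalin, was at 0.623, 0.745 and 0.768 CPM in the 3 no tumor quadriceps. It was at 62.8, 15.4, 105 and 34.7 CPM in KPC 1 to 4 and at 0.512, 0.403, 3.40 and 1.39 CPM in KPC IL6KO 1 to 4. The lowest KPC muscle was 20.1-fold above the highest no tumor muscle and 4.54-fold above the highest KPC IL6KO muscle, so KPC overlapped with neither group. Higher levels without overlap were found for 3 of the 5 genes in KPC against no tumor and against KPC IL6KO, beside 32.3% and 31.2% of all genes. The log2 FC was 6.27 (SE 0.91, edgeR FDR 9.73e-05) against no tumor and 5.23 (SE 0.73, edgeR FDR 6.98e-05) against KPC IL6KO. KPC IL6KO and no tumor overlapped, with a log2 FC of 1.04 (SE 0.84, edgeR FDR 0.982).

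Serpina3n, the serine protease inhibitor, was at 2.79, 5.08 and 4.15 CPM in no tumor quadriceps and at 98.8, 29.0, 50.1 and 17.6 CPM in KPC. In KPC IL6KO it was at 3.43, 1.26, 4.01 and 4.30 CPM, within or below the no tumor range. Every KPC muscle was thus above every muscle of the other groups, by at least 3.47-fold over no tumor. Serpina3n had a log2 FC of 3.61 (SE 0.61, edgeR FDR 2.77e-04) against no tumor and 3.91 (SE 0.54, edgeR FDR 6.78e-05) against KPC IL6KO. The mean level per kb of transcript in KPC was 23.7 CPM, below the 59.4 CPM per kb of Lcn2.

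Itih4 was the least abundant of the 5, at 0.242, 0.196 and 0.154 CPM in no tumor, 1.34, 0.770, 1.52 and 4.91 CPM in KPC, and 0.177, 0.193, 0.283 and 0.206 CPM in KPC IL6KO. No KPC muscle overlapped with the other groups, which overlapped with each other. Itih4 had a log2 FC of 3.36 (SE 0.63, edgeR FDR 6.04e-04) against no tumor and 3.29 (SE 0.54, edgeR FDR 2.23e-04) against KPC IL6KO. The highest value was that of KPC 4, the library with 97.3 CPM of Alb. Without KPC 4 the log2 FC against no tumor was 2.54 (edgeR FDR 1.14e-04), and Alb in KPC 1 to 3 was 0.655 to 1.08 CPM, within the no tumor range of 0.398 to 1.16 CPM.

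Of the 18 hepatocyte markers, 3 were in the quadriceps table (Alb, Apoc3 and Cyp2e1), and their summed level was 40.2 to 210 CPM in no tumor, 37.2 to 303 CPM in KPC and 10.7 to 80.3 CPM in KPC IL6KO. Cyp2e1, which adipocytes also express, was the most abundant of the 3. Apoc3, an apolipoprotein gene, was at 1 to 3 counts in each no tumor muscle and at 0.847, 1.27, 1.23 and 4.82 CPM in KPC 1 to 4, and it was called up (edgeR quasi-likelihood test). Apoc3 held 5 counts or fewer in each KPC IL6KO muscle. Its KPC counts alone could thus have kept it in the table, which favors a call up. The part of hepatocyte RNA in the level of Itih4 was not tested beyond leaving out KPC 4.

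Hp, the hemoglobin-binding protein, was at 32.7, 74.6 and 33.5 CPM in no tumor quadriceps. It was at 196, 178, 62.9 and 16.3 CPM in KPC and at 19.7, 3.56, 21.1 and 15.6 CPM in KPC IL6KO. KPC 4 was below every no tumor muscle and KPC 3 within the no tumor range, so the groups overlapped, and the log2 FC of 1.27 (SE 0.75, edgeR FDR 0.153) was not called. Against KPC IL6KO Hp was called up at 2.92 (SE 0.73, edgeR FDR 0.00369), although KPC 4 lay within the KPC IL6KO range. Every KPC IL6KO muscle was below every no tumor muscle, and the log2 FC of -1.65 (SE 0.73, edgeR FDR 0.696) was not called, with 8.01% of all genes also lower without overlap in that comparison.

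The level of adipocyte RNA in the muscle samples varied from mouse to mouse. Adipoq, the adipocyte hormone adiponectin, was at 70.3, 197 and 35.8 CPM in no tumor quadriceps, 42.8, 94.0, 9.43 and 0.828 CPM in KPC, and 35.3, 6.05, 21.6 and 18.4 CPM in KPC IL6KO. The deviations of Hp from its group means, on the log2 CPM scale, had a Pearson correlation of 0.934 with those of Adipoq over the 11 muscles, which share library depth and dissection. The genes nearest to Hp by this measure were Serpina3c (0.966), Cyp2e1 (0.955) and Cidec (0.950), whereas Lcn2 had a correlation of -0.0634 with Adipoq. The ratio of Hp to Adipoq was 0.465, 0.378 and 0.936 in no tumor, 4.58, 1.90, 6.67 and 19.7 in KPC, and 0.560, 0.588, 0.975 and 0.850 in KPC IL6KO. By the ratio every KPC muscle, KPC 4 included, was above every other muscle. The ratio of KPC 4 rested on its low Adipoq (0.828 CPM), since its Hp of 16.3 CPM was below every no tumor muscle. How many of all quadriceps genes separate the groups by their ratio to Adipoq was not computed. With Adipoq as a covariate, an alternative added after the data were seen, the log2 FC of Hp in KPC was 2.36 (SE 0.36, edgeR FDR 2.64e-04). Without KPC 4 and with no covariate it was 1.63 (edgeR FDR 0.0324). Fewer cells of a type and less RNA per cell cannot be told apart in bulk tissue.

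Cp, the ferroxidase, was at 12.7, 17.99 and 11.1 CPM in no tumor, 14.8, 13.7, 10.5 and 10.6 CPM in KPC, and 10.3, 7.31, 8.97 and 13.3 CPM in KPC IL6KO. All 3 groups overlapped. Cp had a log2 FC of -0.17 (SE 0.23, edgeR FDR 0.509) in KPC and -0.48 (SE 0.22, edgeR FDR 0.740) in KPC IL6KO, both relative to no tumor, and 0.31 (SE 0.21, edgeR FDR 0.203) between the tumor groups.

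**Figure D1:**
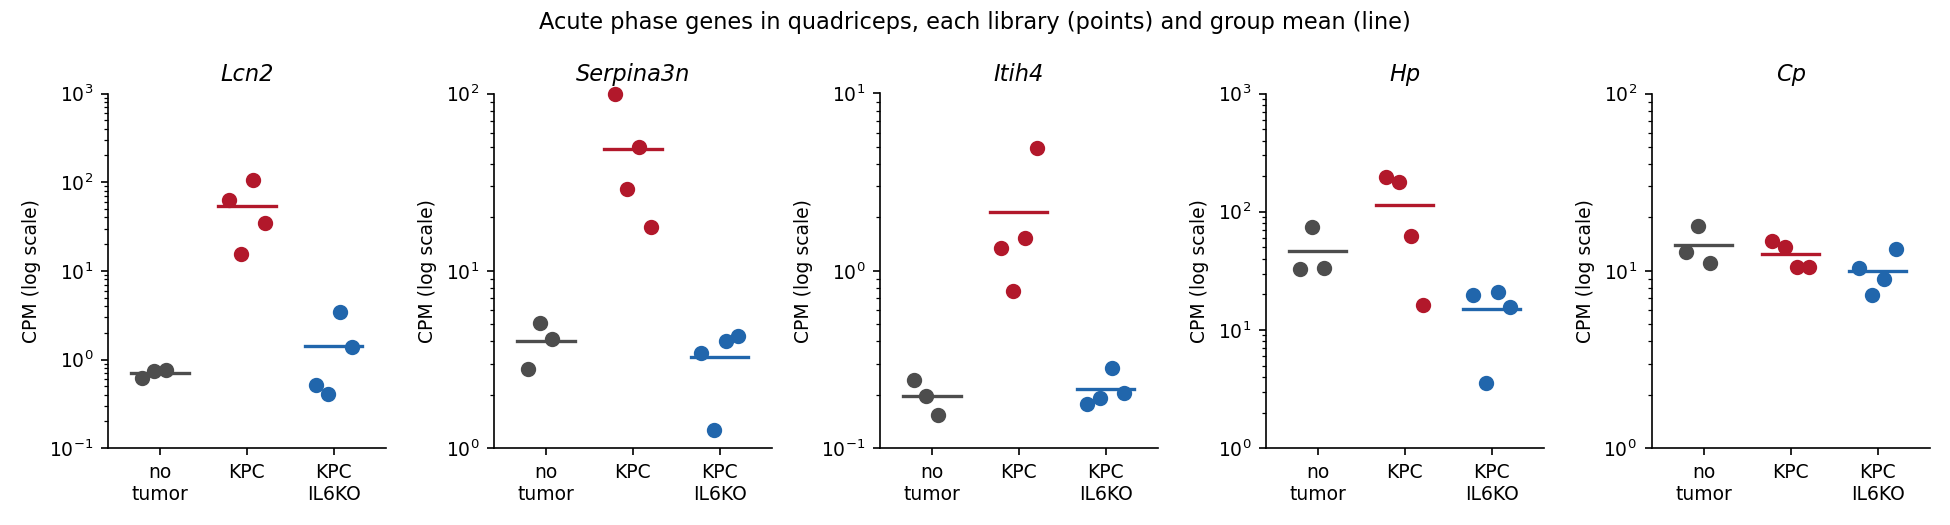
CPM on a log scale (vertical) of the 5 acute phase genes in each quadriceps library, by group (horizontal), with a line at the group mean. Lcn2, Serpina3n and Itih4 were higher in every KPC muscle than in any other muscle, Hp overlapped between KPC and the other groups, with KPC muscles at 16.3 and 62.9 CPM below the highest no tumor muscle, and Cp overlapped in all groups.

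The wider set of acute phase genes in quadriceps moved in both directions. Of 31 other positive acute phase genes, 15 were in the table, with 5 called up and 7 called down in KPC, beside 26.7% and 29% of all genes, and a median log2 FC of -0.60 beside -0.03 over all genes. The metallothioneins Mt1 and Mt2, which bind zinc and copper, rose most. Mt1, the most abundant of the list, went from a mean of 19.5 to 807 CPM (log2 FC 5.38, SE 0.54, edgeR FDR 7.93e-06), and Mt2 from 10.2 to 648 CPM (log2 FC 6.00, SE 0.68, edgeR FDR 1.83e-05). The largest falls were in Ptx3, a pentraxin, by 3.44 on the log2 scale (edgeR FDR 1.55e-05), and in Fn1, fibronectin, by 2.01 (edgeR FDR 7.83e-06). The other 3 that rose and 5 that fell had smaller changes. In KPC IL6KO the test called 0 of the 15.

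Among 4 negative acute phase genes in the quadriceps table, 1 (Rbp4, retinol binding protein) was called down in KPC and 1 (Alb) up, beside 29% and 26.7% of all genes. Alb was at 97.3 CPM in KPC 4 and 0.655 to 1.08 CPM in the other 3 KPC muscles. Of the Serpina3 genes next to Serpina3n, 3 were in the table. Serpina3m rose from a mean of 0.0773 to 2.73 CPM (log2 FC 4.81, SE 0.72, edgeR FDR 1.27e-04) and Serpina3k from 0.0517 to 5.12 CPM (log2 FC 6.50, SE 1.72, edgeR FDR 0.00553), whereas Serpina3c, the most abundant, went from 6.01 to 4.60 CPM (edgeR FDR 0.591). Serpina3m and Serpina3k were near the detection floor in no tumor. Their KPC counts could have kept them in the table, which favors a call up. Of the inter-alpha-trypsin inhibitor family and its hyaluronan partners, 3 were in the table, and Itih5 fell by 1.98 on the log2 scale (edgeR FDR 2.29e-04) and Tnfaip6 by 1.30 (edgeR FDR 0.0131), the opposite direction to Itih4.

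Receptors, partners and targets of the 8 proteins numbered 16 in the quadriceps table, with 5 called up and 5 down in KPC (median log2 FC 0.34), shares near those of all genes (26.7% and 29%). Tfrc, the transferrin receptor, fell by 4.14 on the log2 scale (edgeR FDR 9.00e-06) and Heph, a ferroxidase homologous to Cp, by 1.93 (edgeR FDR 0.00553). Hmox1, which degrades the heme that haptoglobin and hemopexin carry away, rose by 2.01 (edgeR FDR 9.11e-07), and Ftl1, the ferritin light chain, by 0.97 (edgeR FDR 0.00207). Fth1, the ferritin heavy chain and the most abundant of the list, rose by 0.74 (edgeR FDR 7.14e-04). The Lcn2 receptor gene Slc22a17, named after its value was seen, fell by 1.68 (edgeR FDR 5.29e-05).

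Of 19 genes of the inducing pathway in quadriceps, 10 were called up and 4 down in KPC, beside 26.7% and 29% of all genes, with a median log2 FC of 0.72. Il6ra, the IL-6 receptor, rose from a mean of 4.93 to 181 CPM (log2 FC 5.21, SE 0.37, edgeR FDR 1.37e-06), and Cebpd, which encodes C/EBP delta, from 31.0 to 467 CPM (log2 FC 3.92, SE 0.53, edgeR FDR 6.46e-05). Il6st (gp130), the most abundant, had a log2 FC of 0.58 (edgeR FDR 0.0154), just under the FC threshold. Those called down were Jak2, Tyk2, Il1rap and Lifr. In KPC IL6KO the test called 0 of the 19, and relative to KPC IL6KO the KPC mice had 8 called up and 4 down, beside 26.4% and 27.3% of all genes.

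Neutrophil markers were higher by their sum in the quadriceps of both tumor groups than in no tumor. Of 12 listed, 4 were in the quadriceps table (S100a8, S100a9, Retnlg and Csf3r), and all 4 were called up in KPC. Their summed level was 0.359 to 0.779 CPM in no tumor, 4.50 to 21.8 CPM in KPC and 2.14 to 4.13 CPM in KPC IL6KO. In KPC IL6KO, 3 of the 4 were higher than no tumor without overlap, beside 7.54% of all genes, and 0 were called. The granule genes Mpo, Ltf, Camp and Ngp were not among the rows. KPC 3, with the highest sum, also had the highest Lcn2 (105 CPM), but KPC 1, with the lowest KPC sum, had the second highest Lcn2. Neutrophils also express Lcn2, and their part in its level was not tested. The 10 macrophage markers summed to 117 to 165 CPM, 49.8 to 210 CPM and 123 to 183 CPM in no tumor, KPC and KPC IL6KO, with 2 called up and 2 down in KPC. All 10 adipocyte markers had negative log2 FCs in KPC, with 2 called down, all 8 fibroblast markers were called down, and 3 of 10 muscle fiber markers were called down. Over all genes 26.7% were called up and 29% down in KPC, so the muscle fiber count was near the share of all genes. Epididymis and pancreas markers were not among the rows of the quadriceps table, and the only mesothelial marker there, Krt19, was not called in KPC relative to no tumor.

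In fat, Itih4, Saa3, Saa1, Ambp, Serpina3n and Hp were above every no tumor pad in all 4 KPC pads, whereas Lcn2 and Cp overlapped. The calls depended on the test. The edgeR quasi-likelihood test called none of the 8 genes. The edgeR likelihood ratio test called 6 up in KPC and 5 up in KPC IL6KO. In KPC IL6KO 5 of these 6 genes were also above every no tumor pad in all 4 mice, and Serpina3n overlapped. These counts of 6 of 8 and 5 of 8 stood beside 6.52% and 1.52% of all fat genes that were higher without overlap. With the spread of the fat libraries, the edgeR quasi-likelihood test called 0 of the 8 in each comparison, and 0% of all genes. Between KPC and KPC IL6KO all 8 overlapped, with 0.637% of all genes higher in KPC without overlap, log2 FCs from -0.15 for Cp to 1.36 for Saa1 and edgeR FDRs of 0.930 or more. At an unadjusted p under 0.05, 6 of the 8 were higher in KPC (6.26% of all genes) and 6 of the 8 in KPC IL6KO (8.17%). DESeq2 and the edgeR likelihood ratio test each called 6 up in KPC (2.15% and 1.58% of all genes) and 5 in KPC IL6KO (1.66% and 1.23%), the genes being the ones without overlap. Over all genes of KPC fat, the likelihood ratio test called 268 higher and 145 lower. For KPC IL6KO fat it called 209 higher and 0 lower. The study, which names edgeR but not the test, reported the same numbers for fat.

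Itih4 had the smallest adjusted p of all genes in the fat comparison of KPC with no tumor. It was at 0.655, 1.83, 0.395 and 1.72 CPM in no tumor 5 to 8, at 60.0, 30.5, 47.0 and 12.8 CPM in KPC, and at 25.99, 21.4, 20.4 and 22.1 CPM in KPC IL6KO. The lowest KPC pad was 6.97-fold and the lowest KPC IL6KO pad 11.1-fold above the highest no tumor pad. The log2 FC was 5.02 (SE 0.60, edgeR FDR 0.0704) in KPC and 4.28 (SE 0.58, edgeR FDR 0.235) in KPC IL6KO, and 0.74 (SE 0.51, edgeR FDR 0.930) between the tumor groups, which overlapped. It passed the threshold without KPC 8 (log2 FC 5.30, edgeR FDR 0.0242), and without KPC IL6KO 6 it passed in KPC (edgeR FDR 0.0267) and in KPC IL6KO (edgeR FDR 0.0484). The KPC IL6KO values had an SD of 2.44 CPM around a mean of 22.5 CPM, whereas those of Saa3 in the same pads spread 64.7-fold.

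Saa3, the serum amyloid A of fat and macrophages, was at 3.11, 5.81, 1.53 and 2.61 CPM in no tumor and at 308, 282, 199 and 140 CPM in KPC. In KPC IL6KO it was at 113, 13.1, 35.1 and 850 CPM, all above no tumor. Every KPC pad was at least 24.1-fold above the highest no tumor pad, and the KPC IL6KO pads lay on both sides of the KPC range. Saa3 had a log2 FC of 6.16 (SE 1.23, edgeR FDR 0.168) in KPC and 6.28 (SE 1.24, edgeR FDR 0.385) in KPC IL6KO. Without KPC IL6KO 8, which held the highest value, the latter was 4.05 (edgeR FDR 0.766).

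Within each tumor group the summed macrophage markers ranked the 4 pads in the same order as Saa3, and so did the summed fibroblast markers. The macrophage sum over 10 genes was 288 to 1093 CPM in no tumor, 1292 to 1861 CPM in KPC, and 1855, 481, 1407 and 3150 CPM in KPC IL6KO 5 to 8. The pad with the highest Saa3 thus also had the highest macrophage sum, and the KPC IL6KO pad with the lowest Saa3 the lowest in its group. The fibroblast sum was 4500, 4082, 2584 and 2226 CPM in KPC 5 to 8 and 3687, 1475, 3142 and 4358 CPM in KPC IL6KO 5 to 8. In no tumor both sums placed pad 8 above pad 5, the reverse of Saa3. All 10 macrophage markers had positive log2 FCs in both tumor groups, with 0 called. The genes whose deviations from the group means were most like those of Saa3 over the 12 pads were Mpeg1 (Pearson 0.986), Plek (0.985) and Fcgr4 (0.983). The part of macrophage number in the Saa3 level was not tested.

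Saa1, the circulating serum amyloid A, was at 0, 0, 0.163 and 0.158 CPM in no tumor, 22.2, 5.16, 7.21 and 1.79 CPM in KPC, and 1.03, 8.57, 1.49 and 3.03 CPM in KPC IL6KO. The lowest KPC and KPC IL6KO pads were 10.99-fold and 6.33-fold above the highest no tumor pad. For Saa1 the log2 FC was 6.63 (SE 1.30, edgeR FDR 0.168) in KPC and 5.26 (SE 1.23, edgeR FDR 0.385) in KPC IL6KO. Its relative Saa2 had at most 1 count in any no tumor pad and was at 27.8, 5.59, 6.20 and 1.496 CPM in KPC and 0.638, 8.85, 1.87 and 1.74 CPM in KPC IL6KO. Reads from their shared stretches could be missing from both genes, and how many was not tested. Per kb of transcript Saa3 was far above Saa1, with means of 419 and 14.9 CPM per kb in KPC.

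Ambp, the alpha-1-microglobulin and bikunin precursor, was near the detection limit in no tumor fat, at 0, 0.104, 0.279 and 0.190 CPM. It was at 1.90, 0.945, 1.99 and 8.75 CPM in KPC and at 2.95, 10.01, 0.683 and 0.489 CPM in KPC IL6KO, without overlap with no tumor. For Ambp the log2 FC was 4.48 (SE 1.26, edgeR FDR 0.239) in KPC and 4.54 (SE 1.26, edgeR FDR 0.394) in KPC IL6KO. Without KPC 8 the former was 3.41 (edgeR FDR 0.514), and without KPC IL6KO 6 the latter was 3.18 (edgeR FDR 0.155).

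KPC IL6KO 6 was also the pad with 283 CPM of Alb, and it had the highest Ambp and Saa1 of its group. Of 18 hepatocyte markers, 11 were in the fat table, with Cyp2e1 again the most abundant. Their sum was 198 to 4285 CPM in no tumor, 515 to 1719 CPM in KPC and 562 to 1924 CPM in KPC IL6KO. Gene by gene, their median log2 FC was 0.69 in KPC and 3.75 in KPC IL6KO, beside -0.10 and -0.03 over all genes. Positive values were found for 7 and 9 of the 11. Without overlap, 2 and 3 of the 11 were higher than no tumor, beside 6.52% and 1.52% of all genes. Alb in the 4 KPC pads was 10.05, 0.487, 0.472 and 0.715 CPM, against 0.349 to 11.8 CPM in no tumor, and KPC 8, with the highest Ambp of its group, had 0.715 CPM. Without KPC IL6KO 6 the log2 FC of Saa1 in KPC IL6KO was 4.33 (edgeR FDR 0.0951). The part of hepatocyte RNA in the fat levels of the members was not tested further.

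Serpina3n was at 59.1, 296, 23.6 and 82.7 CPM in no tumor, 3599.9, 1095, 505 and 434 CPM in KPC, and 322, 234, 896 and 952 CPM in KPC IL6KO. KPC was 1.47-fold or more above the highest no tumor pad, which was no tumor 6, and KPC IL6KO 6 lay below that pad. The log2 FC was 3.61 (SE 0.96, edgeR FDR 0.233) in KPC and 2.38 (SE 0.91, edgeR FDR 0.475) in KPC IL6KO. KPC 5 held the highest value, and without it the KPC value was 2.56 (edgeR FDR 0.519). All 10 Serpina3 neighbors were in the fat table, and 4 were higher in KPC without overlap, among them, named after their values were seen, Serpina3m with means of 1.08 and 115 CPM (log2 FC 6.73, edgeR FDR 0.0818) and Serpina3i (log2 FC 4.04, edgeR FDR 0.0763). These values were not called, and Serpina3c, the most abundant, had a log2 FC of 0.46.

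Hp was the most abundant of the 8 in the fat of both tumor groups, per kb of transcript as well as by CPM. It was at 556, 1276, 248 and 536 CPM in no tumor, 6526, 4216, 2581 and 1707 CPM in KPC, and 2156, 1785, 5941 and 6082 CPM in KPC IL6KO. The groups with tumors overlapped with each other and not with no tumor, the lowest pads being 1.34-fold and 1.40-fold above the highest no tumor pad. For Hp the log2 FC was 2.52 (SE 0.67, edgeR FDR 0.233) in KPC and 2.61 (SE 0.67, edgeR FDR 0.385) in KPC IL6KO.

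The ratio of Hp to Adipoq in fat was 1.25, 0.451, 2.02 and 0.541 in no tumor, 20.1, 13.1, 10.3 and 9.05 in KPC, and 5.57, 3.63, 3.60 and 8.91 in KPC IL6KO. In this ratio the order was no tumor, KPC IL6KO and KPC, without overlap, although the nearest pads of the tumor groups were close (8.91 and 9.05). Hp itself overlapped between the tumor groups, with a log2 FC of -0.087 in KPC relative to KPC IL6KO. Adipoq was at 189 to 324 CPM in KPC and 387 to 1649 CPM in KPC IL6KO. The share of all genes whose ratio to Adipoq separates the groups was not computed. The deviations of Hp from its group means had a Pearson correlation of 0.964 with those of Serpina3n over the 12 pads and of 0.800 with Adipoq. The genes most like Hp were Pcdh17 (0.978), Adcy4 (0.976) and Scarf1 (0.974), and those most like Serpina3n were 9530082P21Rik (0.994), Pecam1 (0.994) and Itga7 (0.989). All 10 adipocyte markers had negative log2 FCs in KPC fat and 9 of 10 in KPC IL6KO, with 0 called.

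Cp in fat was at 413, 346, 303 and 257 CPM in no tumor, 445, 363, 346 and 543 CPM in KPC, and 839, 331, 438 and 269 CPM in KPC IL6KO, with overlap throughout. The log2 FC was 0.37 (SE 0.34, edgeR FDR 0.695) in KPC and 0.51 (SE 0.34, edgeR FDR 0.661) in KPC IL6KO. Its largest value, in KPC IL6KO 5, stood beside the highest sum of mesothelial markers, 1954 CPM against 262 to 942 CPM in the other pads.

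**Figure D2:**
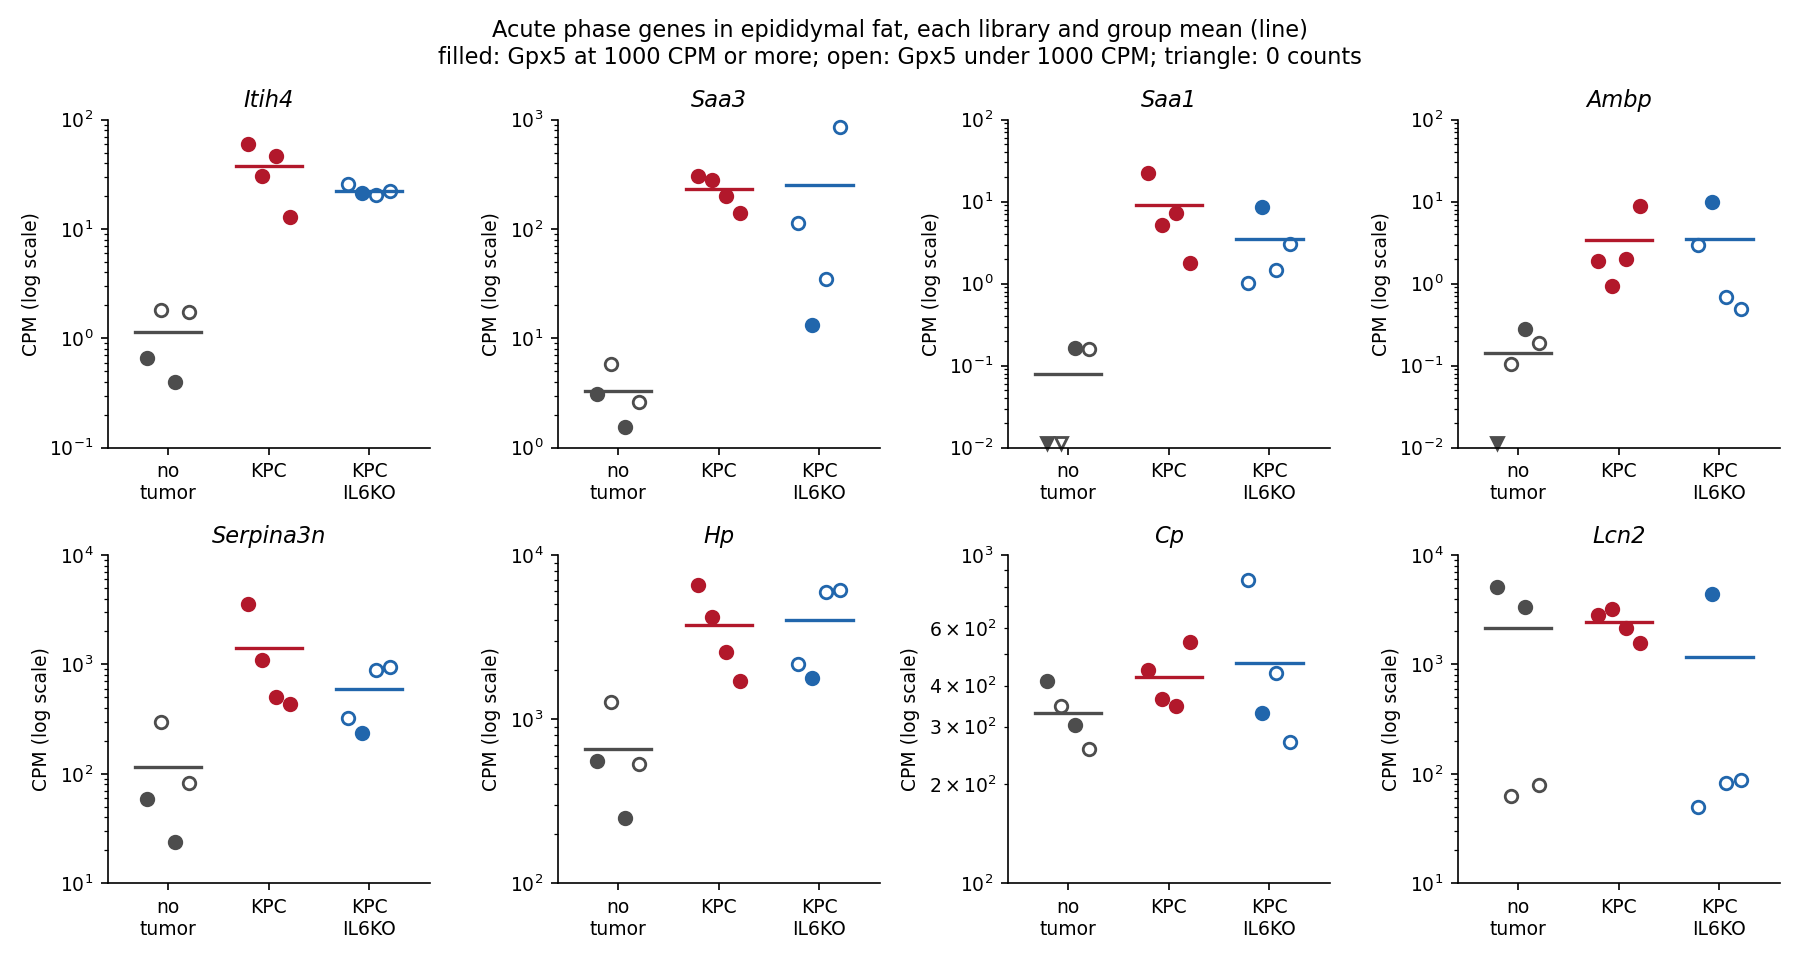
CPM on a log scale (vertical) of the 8 acute phase genes in each epididymal fat library, by group (horizontal), with a line at the group mean, filled points for pads with Gpx5 at 1000 CPM or more, open points for the others and triangles for 0 counts. The first 6 genes were higher in KPC than in every no tumor pad, and Lcn2 split by Gpx5 and not by group.

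Lcn2 in fat did not follow the groups. It was at 5112, 63.1, 3355 and 79.3 CPM in no tumor, 2846, 3188, 2175 and 1559 CPM in KPC, and 49.6, 4437, 81.7 and 87.1 CPM in KPC IL6KO. The 7 pads with Gpx5 at 1000 CPM or more had 1559 to 5112 CPM of Lcn2 and the other 5 had 49.6 to 87.1 CPM, a gap of 17.9-fold between the nearest pads. Gpx5-rich pads were 2 of 4 in no tumor, 4 of 4 in KPC and 1 of 4 in KPC IL6KO. The group comparison gave a log2 FC of 0.18 (SE 1.56, edgeR FDR 0.973) in KPC and -0.89 (SE 1.57, edgeR FDR 0.847) in KPC IL6KO.

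Lcn2 is known to be made in the epididymis, which lies against this fat pad. All 20 epididymis markers were in the fat table, with Gpx5 the most abundant, and none was called between groups. The epididymal transcript Crisp1 reached 9432 CPM or more in 4 of the Gpx5-poor pads but 621 CPM in KPC IL6KO 5, and ran from 156 to 5754 CPM in the Gpx5-rich pads, so that Lcn2 followed Gpx5 and not Crisp1. Within the Gpx5-rich pads, Lcn2 was 0.0730 to 0.130 of the Gpx5 level. There the 4 KPC pads, 1559 to 3188 CPM, lay below both no tumor pads (3355 and 5112 CPM) and below KPC IL6KO 6, and the log2 FC in KPC was -0.70 (edgeR FDR 0.273). Within the Gpx5-poor pads no tumor (63.1 and 79.3 CPM) and KPC IL6KO (49.6 to 87.1 CPM) overlapped, and no KPC pad was Gpx5-poor, so KPC and no tumor could not be compared there. The genes most like Lcn2 in deviation were Armcx6 (Pearson 0.995), Cldn10 (0.991) and Lap3 (0.991), and for Gpx5 the value was 0.938.

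**Figure D3:**
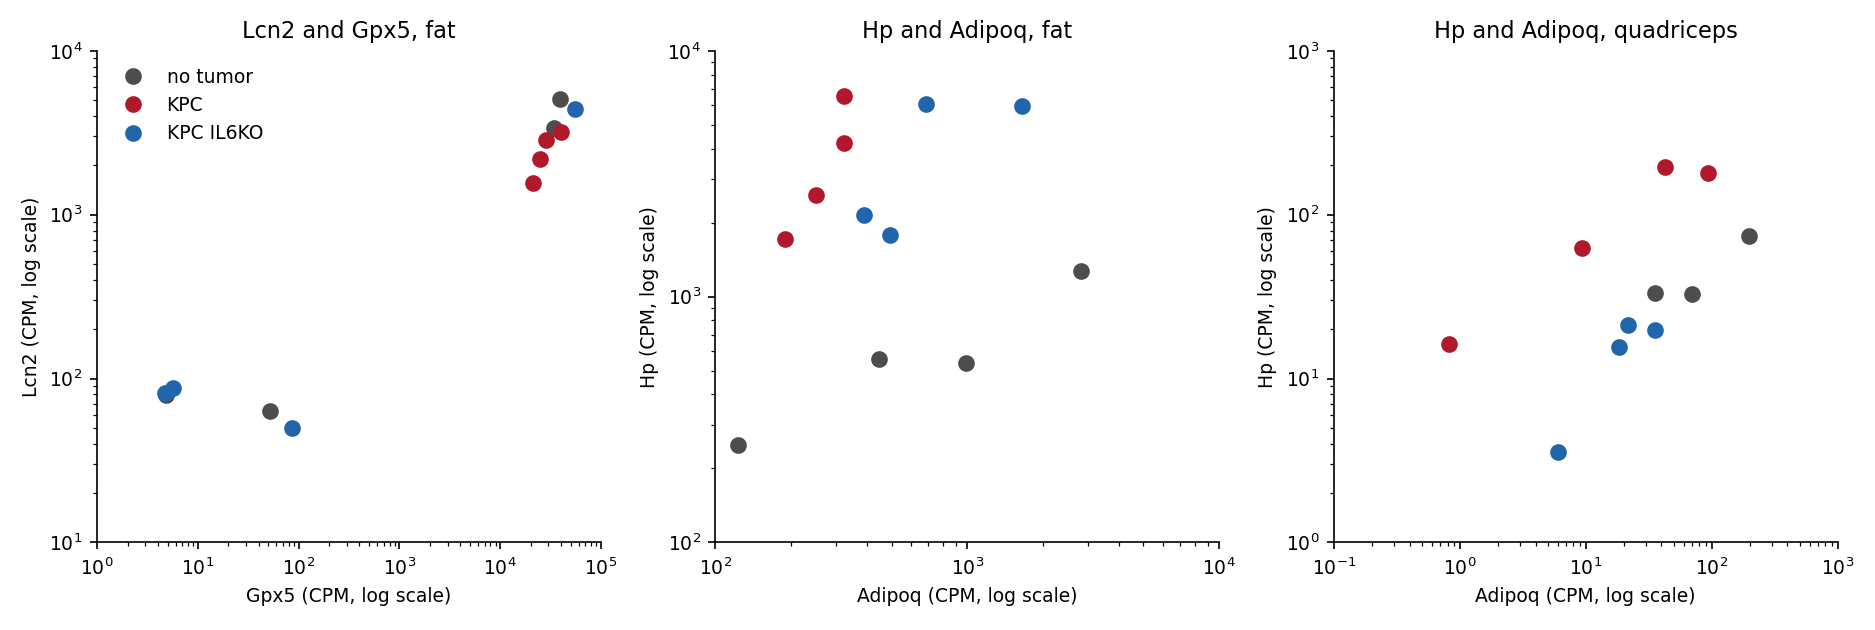
CPM on log scales of Lcn2 against Gpx5 in fat (left) and of Hp against Adipoq in fat (middle) and quadriceps (right), each point 1 library colored by group. On the left 7 pads lie at 1559 CPM of Lcn2 or more and 5 at or below 87.1 CPM, and in the other panels each KPC point has a higher ratio of Hp to Adipoq than any no tumor point.

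Among the Gpx5-rich pads alone, Itih4 had a log2 FC of 6.29 (edgeR FDR 0.0305) and Saa3 of 6.77 (edgeR FDR 0.0180) in KPC relative to no tumor, and these 2 of the 8 were called up, beside 2.02% of all genes. In KPC IL6KO, where 1 pad was Gpx5-rich, the log2 FC of Saa3 was 2.51, against 6.28 over all pads, and that of Itih4 was 5.36, neither of them called. With Gpx5 and Crisp1 as covariates over all pads, Itih4 was called up in KPC (log2 FC 5.18, edgeR FDR 0.0144), beside 0.401% of all genes. With only no tumor and KPC in the fit, Itih4 (edgeR FDR 0.0284) and Saa3 (edgeR FDR 0.0164) were called, beside 0.991%.

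The other lists in fat gave 0 calls in each comparison by the quasi-likelihood test. Of 23 wider positive acute phase genes, 17 had positive log2 FCs in KPC (median 1.20, beside -0.10 over all genes) and 21 in KPC IL6KO (median 1.44, beside -0.03). C3, the central complement component and the most abundant, had means of 548, 1439.5 and 2257 CPM in no tumor, KPC and KPC IL6KO. Of 22 genes of the inducing pathway, 19 and 20 had positive values, with medians of 0.62 and 0.67. Socs3, a feedback inhibitor of STAT3 signaling named here after its value was seen, had means of 3.39, 58.1 and 47.4 CPM (log2 FC 4.10, edgeR FDR 0.0763 in KPC), and Il6st, the most abundant, of 197, 204 and 277 CPM. The negative acute phase genes (8 in the table, Trf the most abundant) had medians of 0.28 and 3.51, and the receptors and partners (22, Ftl1 the most abundant) of 0.84 and 0.87. For the inter-alpha-trypsin inhibitor family (6, Itih5 the most abundant) the medians were 1.26 and 1.48, although Itih5 itself had a log2 FC of -2.50 (edgeR FDR 0.233) in KPC. Medians for neutrophil markers (7, Ltf the most abundant) were 3.05 and 2.46, although their sum, mostly Ltf in the highest pad, was 7.69 to 766 CPM in no tumor, 37.7 to 161 CPM in KPC and 4.49 to 397 CPM in KPC IL6KO. The medians for mesothelium (8, Krt19) were 0.86 and 0.93, for fibroblasts (8, Col3a1) -0.32 and 0.10, and for skeletal muscle fibers (10, Myh4) -4.63 and 3.60. One pancreas marker, Cela1, was in the fat table, at 7.65 to 57.2 CPM.

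**Figure D4:**
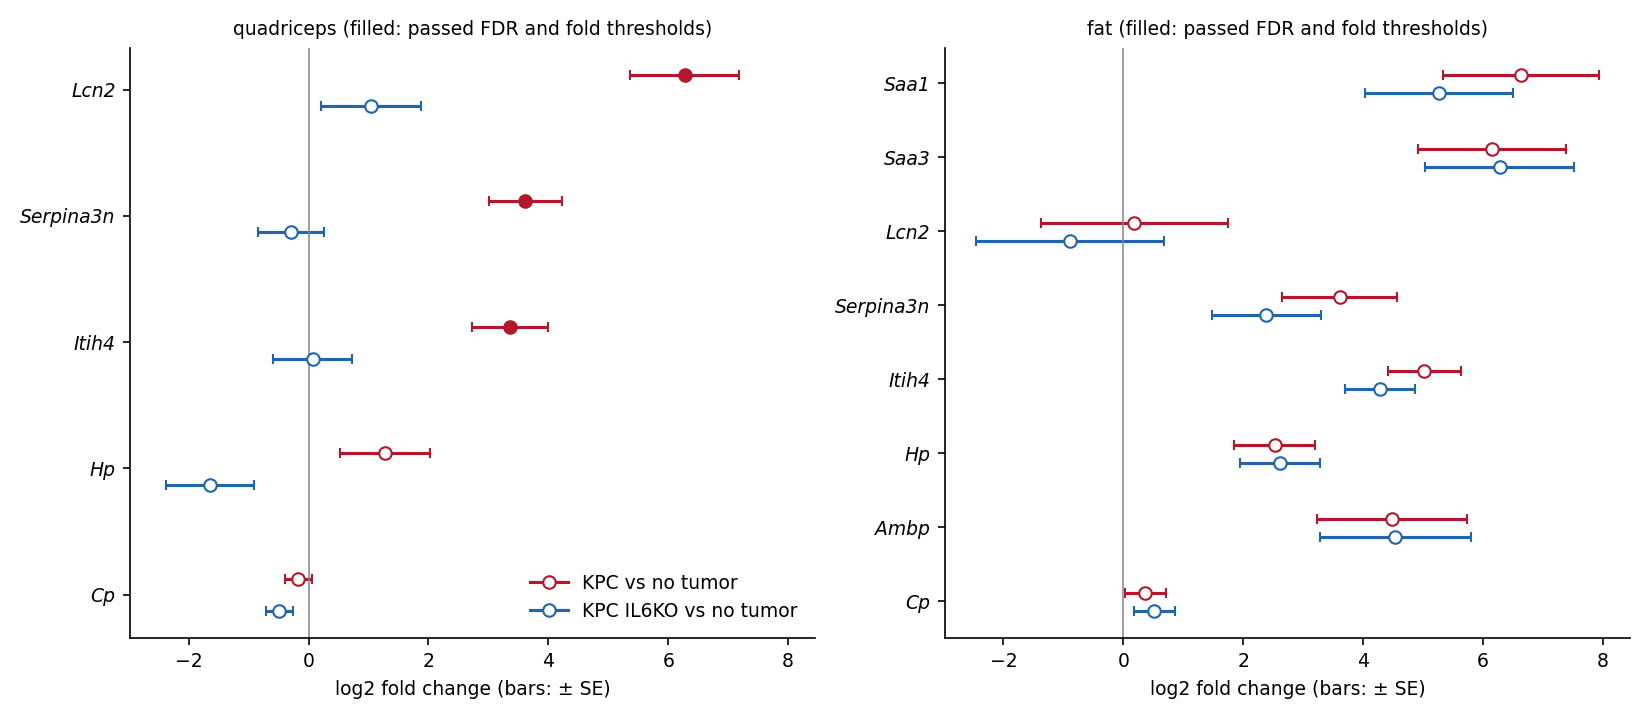
Log2 FC with its SE (horizontal, bars) of each acute phase gene (vertical) relative to no tumor in quadriceps (left) and fat (right), for KPC in red and KPC IL6KO in blue. Filled points passed the FDR and FC thresholds, which only Lcn2, Serpina3n and Itih4 in KPC quadriceps did. In fat the blue points lie on the same side of 0 as the red ones except for Lcn2.

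The 2 tissues were compared through the difference between their log2 FCs, over the 12599 genes in both tables and all 23 libraries. Quadriceps and fat were extracted and sequenced separately from different mice, so levels were not set against each other. In KPC, 1 of the 5 shared genes was called, Lcn2, with a quadriceps minus fat difference of 5.92 (SE 2.08, edgeR FDR 0.0302), beside 36.9% of all genes called in either direction. The fat value in it is the one that split by Gpx5, and the call was lost without quadriceps no tumor 1, 2 or 3, quadriceps KPC 3, fat no tumor 5 or fat KPC 8 (edgeR FDRs of 0.0509 to 0.0742). Serpina3n had nearly the same log2 FC in both tissues in KPC, with a difference of -0.11 (SE 1.10), and Itih4 had -1.77 (SE 0.84, edgeR FDR 0.103), which passed without quadriceps KPC 4 (-2.57, edgeR FDR 0.0112) or fat KPC 8 (-2.06, edgeR FDR 0.0485). Hp had -1.35 (SE 1.00) and Cp -0.65 (SE 0.42). In KPC IL6KO the test called 0 of the 5 and 0% of all genes, with differences of -4.24 for Hp (SE 1.03, edgeR FDR 0.356), -4.15 for Itih4 (SE 0.89, edgeR FDR 0.280) and -2.66 for Serpina3n (SE 1.11, edgeR FDR 0.563). Hp and Itih4 were called there by the likelihood ratio test and DESeq2, which called 0.31% and 0.333% of all genes. In KPC IL6KO mice, Itih4 thus overlapped with no tumor in quadriceps (0.177 to 0.283 CPM) and was above every no tumor pad in fat (20.4 to 25.99 CPM). The quasi-likelihood fit described did not call the difference between these responses (edgeR FDR 0.280), so the call depended on the test.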

How the data were processed

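Per the labels and the study's methods, the authors aligned reads to mm10 with STAR, after quality control with FastQC, and deposited gene counts from featureCounts (Subread, version 1.5.1), 1 table per tissue. Their notes also name edgeR 3.12.1. The library kit is named differently in the labels and in the methods. A no tumor muscle that the authors removed as an outlier was not analysed here. All columns were matched to samples by name, with 0 left over.

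From the counts, edgeR 4.0.16 (R 4.3.3, limma 3.58.1) fitted the 3 groups of a tissue together, with TMM scaling, its expression filter (which removed no gene) and the quasi-likelihood test. A call needed an FC of 1.5 or more and an FDR no higher than 0.05 (Benjamini-Hochberg over all genes of the table). The tissue comparison used an interaction fit over the genes in both tables. Alternatives were DESeq2 1.42.0, the likelihood ratio test, a newer quasi-likelihood fit, other scaling and filters (a minimum of 10 counts in each library), a fit of 2 groups alone, a replicate block, covariates, and each library left out in turn. The fits were tested on simulated data. Figures were drawn with matplotlib 3.10.9 (Python 3.11.15). Likeness was the Pearson correlation of deviations from group means of log2 CPM (prior count 2).

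The 8 genes and the gene lists (wider positive and negative acute phase genes, receptors and partners, Serpina3 neighbors, inter-alpha-trypsin inhibitor family, inducing pathway, and markers of hepatocytes, epididymis, neutrophils, macrophages, adipocytes, skeletal muscle fibers, mesothelium, fibroblasts and pancreas) were chosen with earlier results of these data known. Of each list the most abundant gene and the called genes were named, or the 2 largest changes where more than 4 were called in a direction. Replicate numbers name different mice and were not used to pair the samples in the fit described. A count of 3 served as the detection floor, for counting error only.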

Additional observations from a re-analysis of the deposited data

Results flagged for a closer look

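In 3 of the 34 groups of 4 libraries tested, 1 library lay far from the other 3 for an acute phase gene. The rule, a gap as a share of the group's range, assumes normally distributed values and was applied to CPM. The groups also reuse the same libraries, so no chance rate is set beside this count. Saa3 in fat KPC IL6KO 8 was 850 CPM, against 113 CPM in the next pad, a gap of 0.88 of the group's range. Lcn2 in fat KPC IL6KO 6 was 4437 CPM, against 87.1 CPM in the next, a gap of 0.991 of the range, and this was the only Gpx5-rich pad of its group. Ambp in fat KPC 8 was 8.75 CPM, against 1.99 CPM in the next, a gap of 0.866 of the range. The response of Lcn2 to KPC tumors was called as different between tissues, by 5.92 on the log2 scale (quadriceps minus fat, edgeR interaction test, FDR 0.0302). In that comparison 36.9% of all genes were called. The fat value of Lcn2 split by Gpx5, and the call held in 17 of 23 fits with a library left out.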

How the results depend on the processing

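In fat, the number of members called up in KPC against no tumor, 0 in the fit described, was 6 with DESeq2, 6 with the likelihood ratio test, 1 with the newer quasi-likelihood fit, 2 with only the groups compared, 1 with Gpx5 and Crisp1 as covariates, 2 among Gpx5-rich pads, 1 with Adipoq as a covariate (chosen after seeing the data) and 0 to 1 with a library left out. For KPC IL6KO these counts were 5 (DESeq2), 5 (likelihood ratio test), 1 (Adipoq) and 0 to 1 with a library left out. Of these fits, the likelihood ratio test was the one that gave the study's own fat totals over all genes. Members called different between tissues ranged from 0 to 2 with a library left out, in KPC and in KPC IL6KO, and were 2 in KPC IL6KO with the likelihood ratio test and 2 with DESeq2. No called value changed direction. The changes of direction were all of values not called in the fit described. With Adipoq as a covariate, log2 FCs changed sign in quadriceps for Cp in KPC (0.10), and in KPC IL6KO for Itih4 (-0.70) and Serpina3n (0.31), and in fat for Lcn2 in KPC (-0.71) and between tumor groups for Saa3 (0.34), Hp (0.75) and Lcn2 (-0.48). With Gpx5 and Crisp1 as covariates they changed sign for Lcn2 in KPC (-0.35) and KPC IL6KO (0.033), and between tumor groups for Saa3 (2.26), Hp (1.01) and Lcn2 (-0.38). Among Gpx5-rich pads they changed sign for Lcn2 in KPC (-0.70) and KPC IL6KO (0.055), Cp in KPC IL6KO (-0.13), and between tumor groups for Saa3 (4.25), Hp (1.18), Lcn2 (-0.75) and Cp (0.47). Leaving out a library gave ranges through 0 in quadriceps for Cp in KPC (-0.31 to 0.056) and Itih4 in KPC IL6KO (-0.092 to 0.25). It did so in fat for Lcn2 in KPC (-0.22 to 1.07), and between tumor groups for Ambp (-1.13 to 1.30), Hp (-0.49 to 0.20), Saa3 (-0.52 to 2.11) and Cp (-0.34 to 0.29). The Serpina3n difference between tissues in KPC ran from -1.16 to 0.94. The cause was not tested. The replicate block reversed Itih4 in KPC IL6KO quadriceps (-0.29) and Saa3 between tumor groups in fat (1.01) and changed no call. Mice that share a number had a mean correlation of deviations of 0.025 in quadriceps and 0.146 in fat, beside -0.008 and -0.053 for other pairs. In fat the 12 values ran from -0.539 to 0.650. Whether the numbers carry a shared effect was not tested. The spread of the fat libraries and the low counts of Ambp and Saa1 limit the fat comparisons, and Itih4 in quadriceps is lost where at least 10 counts are required in every library.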
